A study of Mus musculus with 2 samples.

Results

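The regions described here are 306 windows of 1 Mb on the mouse autosomes in which the histone variant H2ABbd was sparse relative to methylated DNA. They were taken from 2414 autosomal windows (mm9, on a grid of 1 Mb from 3 Mb on) that held at least 500 distinct 5mC read positions. A window was a member when its count of distinct H2ABbd positions, as a share of all autosomal H2ABbd positions, was below 0.70 of the same share for 5mC. This quotient is called the ratio below, and members made up 12.7% of the windows tested. Member windows held 266132 of the 2164122 1 kb bins with a read in the tested windows.

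Mouse embryonic stem (ES) cells, pluripotent cells of the early embryo, were cultured without a feeder layer in medium with the cytokine LIF, and 2 libraries were sequenced. In the ChIP library, formaldehyde-crosslinked chromatin was precipitated with a home-made rabbit antibody against mouse H2ABbd. In the MeDIP library, denatured genomic DNA was precipitated with a mouse monoclonal antibody against 5-methylcytosine, clone 33D3. No strain, line name or genotype is given in the labels, and no input library was used here. With 1 library per group, differences have no replicate check and no test was made. The names of the deposited files swap the antibodies relative to the sample labels. "H2ABbd" and "5mC" below mean the libraries so labelled, and if the file names were right the members would be windows poor in 5mC instead.

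H2ABbd is a short variant of histone H2A found in mammals. It lacks the C-terminal tail of canonical H2A, and nucleosomes that carry it hold their DNA less tightly. MeDIP recovers fragments according to how many methylated cytosines they carry, so its yield follows both methylation and the number of CpG sites. Neither library measures occupancy in absolute terms without an input, and copy number or the share of a window to which reads can be aligned acts on both counts.

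On the autosomes, H2ABbd had 1346417 distinct positions from 3441500 reads and 5mC had 7690224 from 8879145 reads. A few very deep regions outside the members took a large part of the H2ABbd reads, so 60.9% of its autosomal reads repeated a position already seen, against 13.4% of the 5mC reads. Those regions also enter the autosomal totals. Over all tested windows the median ratio was 0.88, and the median member lay at 0.731 of the median window, against 1.04 for the median of the other windows.

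Members held few H2ABbd positions, and most of them also held fewer 5mC positions than the other windows. A member window had a median of 280 H2ABbd positions (lowest 105, highest 945), against 470.5 in the 2108 other windows (lowest 81, highest 34393). For 5mC the median was 2524 positions in members (938 to 11465), against 3118 in the other windows (513 to 42453). Both counts were used by the rule and are given as a description. Averaged over windows, members stood at 0.52 of the mean tested window in H2ABbd (exact 95% counting interval 0.517 to 0.523) and at 0.828 in 5mC (0.827 to 0.83). Reads of either library reached a median of 887.5 bins per member window, against 926 in the other windows, and the part of alignability, base composition or copy number in the ratio was not tested. Members held 6.59% of the autosomal H2ABbd positions and 10.5% of the 5mC positions.

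**Figure D1:**
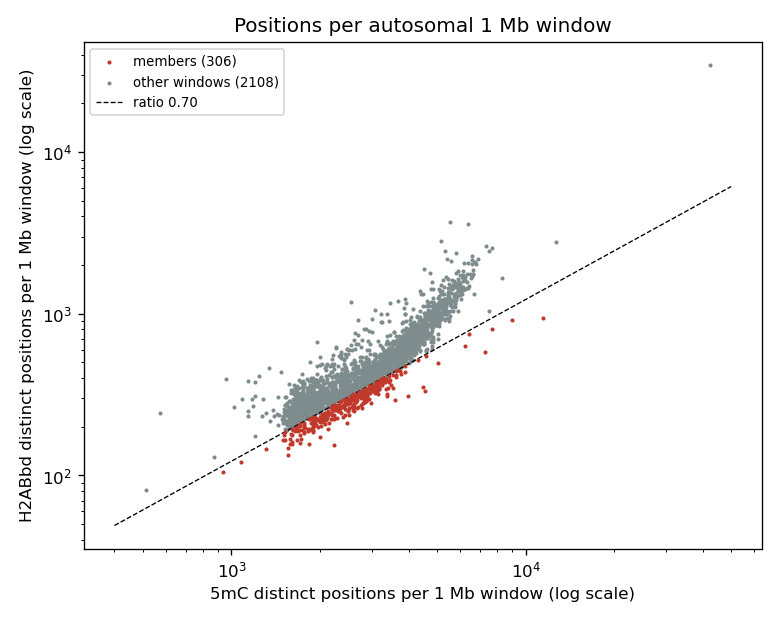
Distinct positions of the library labelled H2ABbd (vertical) against those of the library labelled 5mC (horizontal) in each tested 1 Mb window, both on log scales. The 306 members, in red, lie below the dashed line at a ratio of 0.70, mostly between 170 and 419 H2ABbd positions (5th and 95th percentile), and the 2108 other windows, in grey, lie above it.

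The cloud of windows bends, with the ratio highest among the windows richest in 5mC. In the quintile of windows with the most 5mC positions the median ratio was 1.13, and 11 of 483 windows were members (2.28%). Members were most frequent in the second quintile, with 110 of 483 windows (22.8%), and in the third, with 98 of 482 (20.3%). In the poorest quintile 63 of 483 windows were members (13.0%). Members were thus not most frequent among the windows with the fewest 5mC positions. Of the members, 232 (75.8%) lay below the median tested window in both libraries, which held 433 H2ABbd and 2976 5mC positions. Another 60 lay below it in H2ABbd only, and 14 were at or above it in H2ABbd and still fell under a ratio of 0.70 because their 5mC count was high. Across the 306 members the logarithms of the counts were correlated (Pearson r = 0.953), as across the other windows (0.917). Windows of both libraries share their alignable length, so this is a description only.

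Counting error limited single windows. The exact 95% interval of a member's ratio extended by a median of 12.6% of the ratio to either side, since it rested on few H2ABbd positions. For 92 members (30.1%) the whole interval lay below 0.70, while for all 306 it lay below the median ratio of 0.88. The intervals use the same counts that chose the windows and do not allow for that choice, so both numbers are a description only. Just inside the threshold were windows on chromosome 2 from 124000001 (0.6996), chromosome 14 from 4000001 (0.6991) and chromosome 7 from 118000001 (0.6985). Just outside were chromosome 3 from 135000001 (0.7003), chromosome 1 from 70000001 (0.7010) and chromosome 16 from 49000001 (0.7013). Their intervals overlapped almost wholly, from 0.631 to 0.771 for the chromosome 7 window and from 0.629 to 0.778 for the chromosome 3 window. Windows near the threshold are therefore not distinguishable by side.

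The ratio was also read on each DNA strand apart. In windows chosen on plus strand positions alone, at the same distance below that strand's median window, the median ratio on the minus strand was 0.776 of the median window, against 1.04 in windows not chosen. Chosen on the minus strand, the median on the plus strand was 0.807, against 1.04. Of 334 windows chosen on the plus strand, 92.2% lay below the median window on the minus strand and 55.4% lay below the threshold again, where 16.2% of all windows did. Of 390 chosen on the minus strand, 47.4% passed again on the plus strand, where 13.8% of all did. Both strands can come from ends of the same fragment, so they are not independent libraries. They also share the window's alignability, base composition and copy number, whose part in the ratio was not tested.

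The lowest ratios came in different ways. The lowest of all, chromosome 9 from 28000001 to 29000000, had 154 H2ABbd and 2239 5mC positions, a ratio of 0.393 (0.331 to 0.463). Its 5mC count was below the median tested window, and its H2ABbd count was under the median of members. In contrast chromosome 1 from 140000001 to 141000000 had 333 and 4561 positions (0.417, 0.372 to 0.466), in the richest quintile by 5mC and with an H2ABbd count below the median window. Its neighbours from 139000001 (311 and 3973, 0.447) and from 141000001 (353 and 4474, 0.451) came next. Chromosome 10 from 7000001 (581 and 7277, 0.456) and chromosome 8 from 19000001 (945 and 11465, 0.471) were rich in both libraries. Chromosome 5 from 27000001 (291 and 3590, 0.463), chromosome 15 from 69000001 (156 and 1831, 0.487), chromosome 2 from 115000001 (212 and 2468, 0.491) and chromosome 16 from 40000001 (134 and 1557, 0.492) complete the 9 that follow the chromosome 9 window.

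In a few members the low ratio rested on bins very rich in 5mC. A 1 kb bin was called enriched in a library when its adjusted Poisson tail was below 0.01 and its count was at least 4 times the mean of non-empty bins of its chromosome. The fold needed in effect differed between the libraries. With 8 times the mean required, H2ABbd-enriched bins in members went from 3.84 to 3.81 per 1000 and 5mC-enriched bins from 4.66 to 1.01. The 2 kinds of bins are thus not called at a like fold. Without their 5mC-enriched bins 298 of the 306 members stayed below 0.70, and the median ratio was 0.642, against 0.643 with them. In the median member 0.752% of 5mC positions lay in such bins, and 117 members had none of these bins. The chromosome 10 window was different, since 10 bins held 56.3% of its 5mC positions and its ratio without them was 0.817. On chromosome 8 the windows from 19000001 and 20000001 had 79.5% and 92.4% of their 5mC positions in enriched bins, and ratios of 0.805 and 0.906 without them. The second of these had reads in only 39 bins. The chromosome 1 windows from 137000001 and 138000001 also had many enriched bins (30.6% and 25.2% of 5mC positions), but their ratios without them, 0.596 and 0.582, were nearly the same as with them, 0.578 and 0.599.

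Members occurred on every autosome, unevenly. Chromosome 2 had the most, 36 of 179 windows (20.1%, exact 95% interval 14.5 to 26.7%), followed in share by chromosome 15 with 19 of 101 (18.8%, 11.7 to 27.8%) and chromosome 16 with 17 of 96 (17.7%, 10.7 to 26.8%). Chromosome 17 had the fewest, 4 of 93 (4.3%, 1.18 to 10.6%), and chromosome 4 had 11 of 153 (7.19%, 3.64 to 12.5%). Most intervals of neighbouring chromosomes in this order overlap, and adjoining windows are not independent, so the intervals are too narrow. The lowest ratio of a chromosome lay between 0.393 on chromosome 9 and 0.573 on chromosome 13 (from 32000001, 250 and 2494 positions). On chromosome 17 the lowest member was its first window, from 3000001 (495 and 5042 positions, 0.561). The remaining lowest members were those from 80000001 on chromosome 3 (0.569), 76000001 on chromosome 4 (0.568), 93000001 on chromosome 6 (0.523), 39000001 on chromosome 7 (0.54), 36000001 on chromosome 11 (0.545), 28000001 on chromosome 12 (0.539), 6000001 on chromosome 14 (0.538), 27000001 on chromosome 18 (0.528) and 19000001 on chromosome 19 (0.557).

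**Figure D2:**
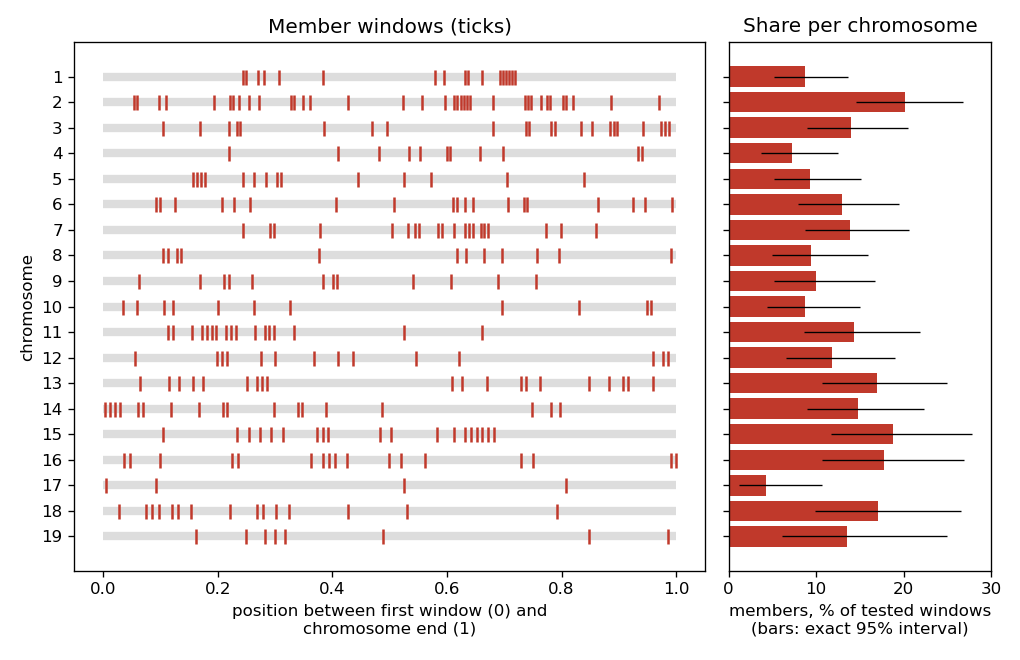
Left, each autosome scaled from its first window (0) to its end (1), with a tick for each member window. Right, members as a percentage of the tested windows of each chromosome, with exact 95% intervals, from 4.3% on chromosome 17 to 20.1% on chromosome 2.

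Along the chromosomes members were most frequent in the second and the fourth quintile of their length. The second quintile held 27.8% of members (22.8 to 33.2%), against 18.6% of the other windows (17.0 to 20.3%), and the fourth 25.5% (20.7 to 30.8%), against 19.3% (17.6 to 21.0%). The middle quintile held 14.4% of members (10.7 to 18.8%), against 20.7% of the other windows (19.02 to 22.5%). Fewest were in the last quintile, 12.7% (9.22 to 17.0%), against 21.4% (19.7 to 23.2%). The very end differed less, since 6.86% of members (4.3 to 10.3%) and 8.82% of the other windows (7.65 to 10.1%) lay in the last 10 Mb. In the last 5 Mb lay 14 members (4.58%) and 98 of the other windows (4.65%). The first 10 Mb held 7.19% of members and 7.97% of the other windows.

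Many members adjoined one another. Of the 306, 141 (46.1%, 40.4 to 51.8%) adjoined another member, against 18.7% of the other windows (395 of 2108). With fewer members both shares were lower, at 23.4% and 6.68% with ratios taken over the median window and at 20.8% and 5.48% with a threshold of 0.60. They formed 220 runs, of which 165 were a single window, 36 had 2 windows, 13 had 3, 3 had 4 and 3 had 6. The nearest windows outside were also low: the 395 other windows next to a member had a median ratio of 0.83, the 291 at a distance of 2 windows had 0.89, and the 522 at 10 or more windows had 1.00. In those 395 windows the medians were 399 H2ABbd and 2756 5mC positions.

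The longest runs, of 6 windows each, lay on chromosomes 1, 15 and 2. The run on chromosome 1 from 137000001 to 143000000 had a ratio of 0.528 (0.509 to 0.548) from 3058 H2ABbd and 33084 5mC positions. Its first 2 windows were rich in both libraries, with 912 and 808 H2ABbd and 9013 and 7702 5mC positions. The next 4 had 311 to 353 H2ABbd positions and 3361 to 4561 5mC positions, and the windows on either side of the run had ratios of 0.993 and 1.30. The run on chromosome 15 from 66000001 to 72000000 had a ratio of 0.615 (0.583 to 0.649), with 156 to 327 H2ABbd positions per window and flanking windows at 0.854 and 1.10. That on chromosome 2 from 112000001 to 118000000 had 0.624 (0.592 to 0.656), with 199 to 324 H2ABbd positions per window and flanks at 0.982 and 0.99. Runs of 4 on chromosome 5 (26000001 to 30000000, 0.579) and chromosome 11 (23000001 to 27000000, 0.631) had flanks at 0.763 and 1.02, and at 0.744 and 0.777. The 3 runs of 6 were thus bounded on both sides by windows clearly above the threshold, and the chromosome 11 run by windows just above it.

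Each window was also read in pieces of 100 kb. The pieces hold the same positions that the rule summed, so their shares are a description of how the low ratio was distributed. Of 3027 member pieces with at least 50 5mC positions, 68.3% were below 0.70 (66.6 to 70.0%), against 27.9% of 20981 pieces in the other windows (27.3 to 28.5%) and 33% of all pieces. A piece held few H2ABbd positions, so its counting interval is wide. A median member had 7 such pieces of 10, and 93 members (30.4%) had 8 or more, against 5 of the 2108 other windows. Pieces at a ratio of 1 or more made up 6.84% in members and 37.2% in the other windows. The lowest pieces were those on chromosome 8 from 51400001 (4 H2ABbd and 154 5mC positions, 0.148, 0.0399 to 0.388) and chromosome 1 from 139700001 (9 and 342, 0.15, 0.0681 to 0.289).

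At the edges of runs of 2 or more members the change lay mostly in H2ABbd. In the first 100 kb inside, a piece had a median of 27 H2ABbd and 254.5 5mC positions, and between 500 and 600 kb inside 25 and 251. In the first 100 kb outside the medians were 34 and 260, and between 500 and 600 kb outside 38.5 and 275.5. The median ratio was 0.641 in the first 100 kb inside and 0.738 in the first 100 kb outside, and stayed between 0.738 and 0.813 out to 1 Mb outside. Between 1 and 2 Mb outside it was 0.741 to 0.824. Pieces at that distance can lie in another member window, since some runs are only 1 window apart, so they do not describe non-members alone. The edges follow the window grid and were placed by the ratio, so their sharpness is partly set by the rule.

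**Figure D3:**
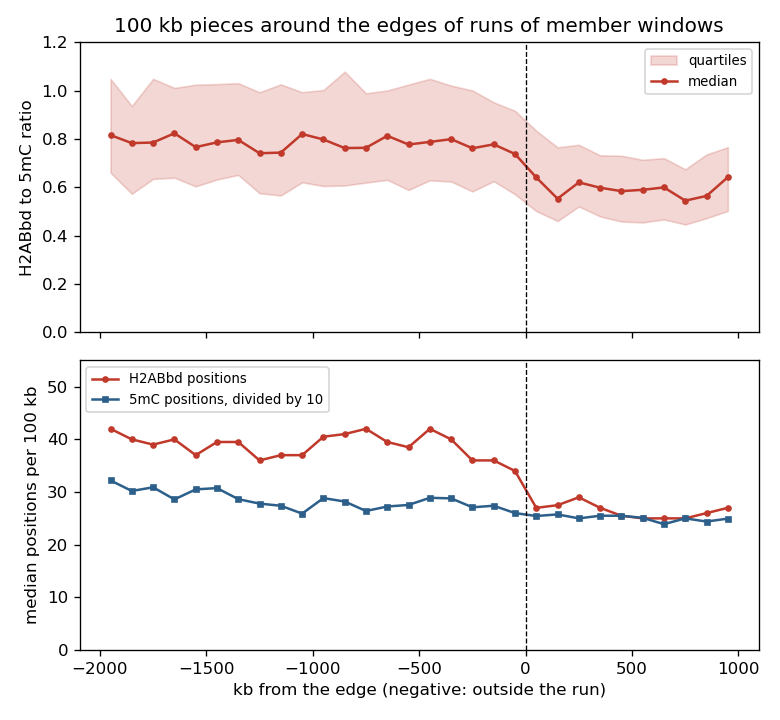
Pieces of 100 kb by their distance from the edges of the 55 runs of 2 or more member windows (positive inside, negative outside). Above, the median H2ABbd to 5mC ratio with quartiles, 0.641 in the first piece inside and 0.738 in the first outside. Below, the median positions per piece of each library, with those of 5mC divided by 10. Pieces more than 1 Mb outside can lie in another member window.

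Within member windows H2ABbd was thin. Of the non-empty bins in members 77.4% had no H2ABbd position (77.2 to 77.5%), against 66.1% in the other windows (66.1 to 66.2%). The mean was 0.333 positions per bin in members, against 0.662 in the other windows. Bins without a 5mC position made up 1.90% in members and 1.85% in the other windows. A Poisson count with the same mean would leave 71.6% of member bins without an H2ABbd position, so the positions that were there lay somewhat together. The variance of H2ABbd counts over bins was 2.45 times the mean in members and 31.7 times in the other windows, which hold the largest pile-ups. Once the 0.1% most covered bins were left out it was 1.95 times and 2.57 times. For 5mC it was then 1.55 times in members and 1.85 times in the other windows.

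**Figure D4:**
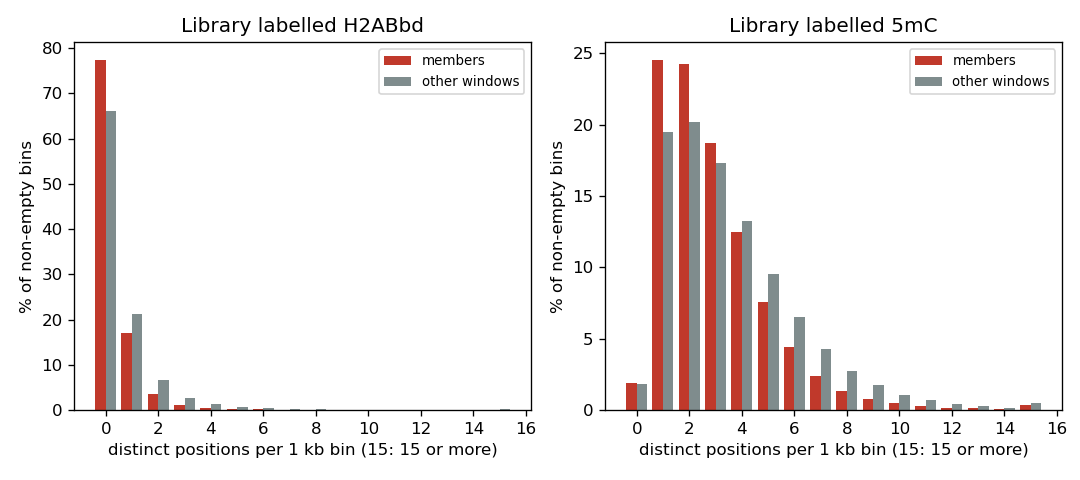
Share of non-empty 1 kb bins by their number of distinct positions, in members (red) and other windows (grey), with the library labelled H2ABbd on the left and the library labelled 5mC on the right. No H2ABbd position was found in 77.4% of member bins and 66.1% of the others, while the share without a 5mC position was 1.90% and 1.85%.

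H2ABbd-enriched bins were rarer in members. They numbered 1023 in members, 3.84 per 1000 non-empty bins (3.61 to 4.09), against 13.1 per 1000 in the other windows (12.9 to 13.2), where 1.19% of all tested bins were called. The rate was lower in members within each quintile of 5mC positions per window, from 2.63 against 6.62 per 1000 in the poorest quintile to 15.4 against 28.7 in the richest. At a given 5mC level the rule selects windows with fewer H2ABbd positions, 0.249 per bin in members and 0.363 in the other windows of the poorest quintile, so a lower rate follows at least in part from the rule. Held against the mean of their own window instead of their chromosome, it was 5.505 against 9.94 per 1000, a setting chosen after the data were seen. A median member had 3 such bins and the median of the other windows was 7, and 15 members (4.9%) had none, against 10 of the other windows (0.474%). The 1023 bins formed 936 regions, 864 of them a single bin, at a median fold of 12.9 over the chromosome mean.

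For 5mC-enriched bins the sign of the difference depended on few windows and on the setting. Members had 1239, or 4.66 per 1000 (4.4 to 4.92), against 5.21 per 1000 in the other windows (5.11 to 5.32), with 0.514% of all tested bins called. Of the 1239, 330 (26.6%) lay in the chromosome 1 run of 6 and 247 (19.9%) in the chromosome 8 and 10 windows with over 50% of their 5mC in such bins. The rest of the members had 2.56 per 1000. Members had the higher rate in 8 of 19 alternative settings and the lower in 11.

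Fewer of the 5mC-rich bins in members carried H2ABbd. Of 5mC-enriched bins 14.1% were also H2ABbd-enriched in members (12.2 to 16.2%), against 25.8% in the other windows (24.9 to 26.6%), and 28.3% had no H2ABbd position (25.8 to 30.9%), against 17.3% (16.5 to 18.0%). Bins enriched in both libraries made up 0.658 per 1000 in members and 1.34 per 1000 in the other windows, and 0.126% of all tested bins. Read the other way, 17.1% of the H2ABbd-enriched bins of members were 5mC-enriched (14.9 to 19.6%), against 10.3% in the other windows (9.9 to 10.7%). These shares depend on the lower density of H2ABbd in members, which the rule selected. They also lean on few windows. The chromosome 1 run of 6 held 26.6% of the 5mC-enriched bins of members, and the chromosome 8 and 10 windows 19.9%. H2ABbd-enriched bins were denser there too, at 10.2 and 30.4 per 1000, against 3.52 in the rest of the members. Bins are not independent, so the intervals are too narrow.

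Single regions inside members nevertheless held much H2ABbd. The highest was chromosome 13 from 74666001 to 74669000, with 153 H2ABbd positions (98.3 times the chromosome mean, Poisson 95% interval 83.3 to 115.1) and 1162 5mC positions (115.5 times, 108.9 to 122.3). It drew 177 H2ABbd reads but 4995 5mC reads. For the next regions the levels relative to the chromosome means are given for H2ABbd and then 5mC. The first 3 were rich in H2ABbd and under 4 times the mean in 5mC, and the last was raised in both. On chromosome 3 the bin at 141666001 to 141667000 had 30 and 11 positions, at 63 and 3.59 times those means. A bin of chromosome 1 at 139052001 to 139053000 had 29 and 7 positions, at 55.8 and 2.26 times, and lay inside the run of 6 windows. On chromosome 13 the bin at 89297001 to 89298000 had 27 and 7, at 52 and 2.09 times. A pair of bins on chromosome 3, at 157104001 to 157106000, had 49 and 58, at 51.4 and 9.46 times.

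The densest 5mC region of the members was that on chromosome 10 at 7229001 to 7238000, with 125 H2ABbd and 4083 5mC positions, at 23.7 and 131.1 times the means. It was followed by the chromosome 13 region above, here with 1 more bin from 74665001 on. Another on chromosome 13, at 35130001 to 35131000, had 8 and 111 positions (15.4 and 33.1 times). On chromosome 8 a region of 17 kb at 19916001 to 19933000 had 96 and 1771 positions (8.36 and 27.6 times), and one of 11 kb at 19753001 to 19764000 had 43 and 778 (5.79 and 18.7 times). All of these 5 were thus higher in 5mC than in H2ABbd relative to the means. Bins enriched in both libraries included parts of the chromosome 13 and 10 regions. On chromosome 8 those at 19924001 to 19927000 stood at 24.2 and 84.9 times and those at 20022001 to 20024000 at 25.2 and 22.1 times. At the start of chromosome 17, from 3079001 to 3083000, both libraries were raised alike, at 18.8 and 18.4 times.

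Some stretches of members held no H2ABbd position. Only the longest such stretch of each member window was considered, and those with the most 5mC positions were picked after the values were seen. The first of them ran on chromosome 14 from 94893001 to 94968000, 75 kb with 152 5mC positions and 0 H2ABbd positions. A floor of 3 H2ABbd counts over the stretch corresponds to 17.1 5mC positions, and the 5mC count was 8.87 times that floor. Each stretch was cut where H2ABbd positions were absent, so its 0 follows from the choice. The folds are therefore a description and not a lower bound. On chromosome 12 from 28912001 to 28953000 there were 134 and 0 (7.82 times the floor), and on chromosome 1 from 139961001 to 140000000 128 and 0 (7.47 times the floor). Stretches were also cut at window borders, as the chromosome 1 stretch was at its end, so lengths are partly set by the grid. The longest stretch of bins without H2ABbd in a window had a median length of 29 kb in members and 23 kb in the other windows.

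Repeated reads, which the rule does not count, were few in members. Of H2ABbd reads 15.7% repeated a position and strand in members (15.5 to 15.9%), against 62.3% in the other windows. Most of that gap lay in a few bins, since without the 0.1% most covered bins it was 15.7% in members (15.5 to 15.95%), against 18.5% (18.4 to 18.5%). For 5mC the shares without those bins were 3.71% in members (3.67 to 3.75%) and 4.19% in the other windows (4.18 to 4.21%). With all reads counted the median member lay at 0.719 of the median window, against 0.731 for distinct positions, and all 306 lay below the median window. These reads include every position that the rule counted, so this follows largely from the rule.

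Fragment length, seen as the distance between read starts on opposite strands, differed little between members and the other windows. Outside the 0.1% most covered bins H2ABbd read starts lay most often 100 to 109 bp apart in members and 110 to 119 bp apart in the other windows. Those of 5mC lay most often 70 to 79 bp apart in both. The H2ABbd peak stood at 6.62 times the background of longer distances, 600 bp and over, in members (Poisson 95% interval 6.09 to 7.17), against 4.45 times in the other windows (4.38 to 4.53). The background itself falls with density. Per 1000 plus strand positions there were 10.2 pairs above background at the peak in members and 16.9 in the other windows. This number also depends on density, which was 0.323 H2ABbd positions per bin in members and 0.609 in the other windows and which the rule selected. For 5mC there were 16.01 in members and 16.96 in the other windows. Plus strand positions made up 57.2% of H2ABbd in members and 54.8% in the other windows, and 53.2% and 52.6% of 5mC.

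**Figure D5:**
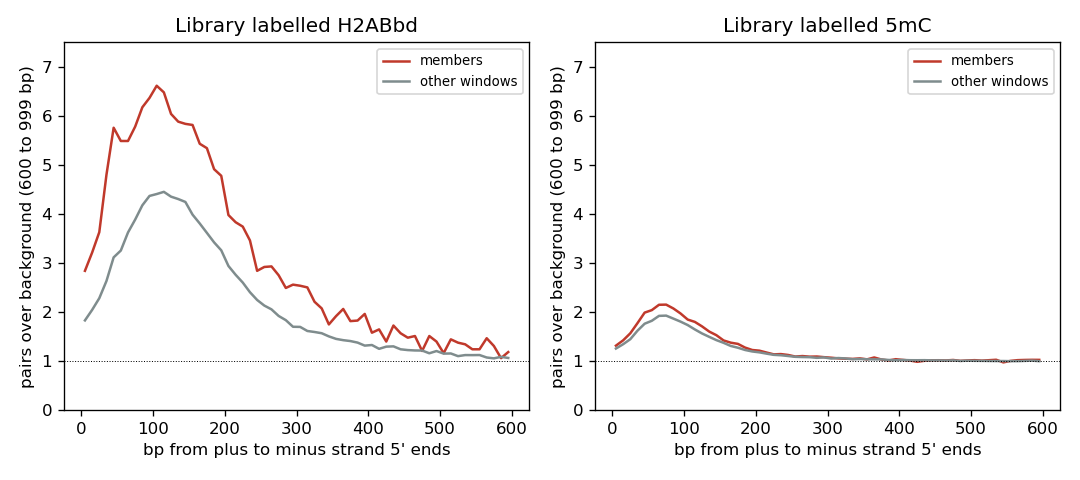
Pairs of plus and minus strand read starts by their distance, over the mean at longer distances (600 bp and over), in members (red) and other windows (grey), without the most covered bins. The H2ABbd peak of members, 6.62 times background at 100 to 109 bp, stands above that of the other windows, 4.45 times at 110 to 119 bp, while the 5mC peaks lie at 70 to 79 bp in both.

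The closest windows outside the members, 484 with a ratio of 0.70 to 0.80, had a median of 346.5 H2ABbd and 2639 5mC positions. Their rate of H2ABbd-enriched bins was 5.04 per 1000, nearer to the members than to the other windows as a whole. Their share of repeated H2ABbd reads was 17.3%, against 15.7% in members and 62.3% in the other windows. Without the most covered bins it was 15.7% in members and 18.5% in the other windows. For the 484 the share without those bins was not determined, so on repeated reads they are not placed nearer to either group. Of their non-empty bins 73.9% had no H2ABbd position, also nearer to the members (77.4%) than to the other windows (66.1%). Place along the chromosome was mixed. The last quintile held 11.8% of the 484 (12.7% of members, 21.4% of the other windows), and the second 24.4% (27.8% and 18.6%). Scarcity in the last quintile was thus shared with the members. The middle quintile held 22.3%, the fourth 20.9% and the first 20.7%, each nearer to the other windows. Also nearer to the other windows, 1.03% of the 484 had 8 or more 100 kb pieces below 0.70. Of their 5mC-enriched bins 21.6% had no H2ABbd position, which was nearer to the other windows as well. But 19.5% of these bins were H2ABbd-enriched, slightly nearer to the members (14.1%) than to the other windows (25.8%). Their rate of 5mC-enriched bins, 2.69 per 1000, was below that of both members and the other windows. On the X chromosome, which the rule leaves out, 68 of 164 windows (41.5%, 33.8 to 49.4%) were below 0.70 against the autosomal totals, with a median ratio of 0.752.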

How the data were processed

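One H2ABbd ChIP-seq and 1 MeDIP-seq library of mouse ES cells were analysed. Per the labels' protocols sheared DNA was amplified by 20 PCR cycles (ChIP) or 15 (MeDIP). Per the submitters' processing notes FastQC and Bowtie were run and the build was mm9, and for their versions and settings nothing is given in the sources used here. Each line of the deposited files is 1 aligned read of 42 bp, and the deposited score column has the same value throughout and was not used. Lines with broken separators (8 and 1) were left out.

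Distinct positions (chromosome, 5' end, strand) were moved 100 bp in the read direction and counted in 1 kb bins. The end of a chromosome is its last bin with a read. Ratio intervals are exact Clopper-Pearson on the counts and fold intervals exact Poisson, both at 95% and for counting error only, since without molecular identifiers PCR copies cannot be told from independent molecules. Poisson tails with Benjamini-Hochberg adjustment only filter bins within a library. Named windows are the 10 lowest members, the lowest per chromosome, the 5 longest runs, 3 windows on each side of the threshold and the 5 strongest enriched regions of each kind. Members, lists and settings were chosen with earlier results of these data known. Steps were tested on simulated data. The gene tables at hand are on GRCm38, so genes, GC content and sequences were not analysed here. Python 3.11.15, numpy 2.4.6, pandas 2.3.3, scipy 1.17.1 and matplotlib 3.10.9 were used.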

Additional observations from a re-analysis of the deposited data

How the results depend on the processing

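No paired analysis was possible because there was 1 library per group. In all 19 alternatives members had fewer H2ABbd-enriched bins per 1000 than the other windows. In the 16 that bear on the choice or content of windows they had a smaller share of repeated H2ABbd reads, lower mean densities in both libraries, and larger shares of adjoining windows and of 100 kb pieces below 0.70. Each of these 16 chose members anew by a low ratio. Fewer H2ABbd positions and H2ABbd-enriched bins, and more pieces below 0.70, thus follow at least in part from the rule. The rate of 5mC-enriched bins was lower in members in 11 of the 19 and higher in 8. Without the shift, at a minimum of 1000 5mC positions or with no minimum, each value that has a counting interval stayed within it. The number of members has no such interval, and in these 3 settings it was 306, 305 and 307. It was 209 on positions with 1 read alone, 217 on the plus strand and 245 without the most covered bins. With 5mC thinned it was 317, at a minimum of 2000 positions 239, and with windows moved by 0.5 Mb 289. Values that left their interval, and numbers of members further from 306, are given here, densities being the mean over members divided by the mean tested window. With all reads kept there were 2166 members, a 5mC density of 0.867, an H2ABbd density of 0.409, 98.6% adjoining, 91.1% of pieces below 0.70, 11.5 H2ABbd-enriched bins per 1000 and 4.35 5mC-enriched bins per 1000. On positions with 1 read alone there was a 5mC density of 0.858, an H2ABbd density of 0.543, 35.4% adjoining, 65.4% of pieces below 0.70, 3.28 H2ABbd-enriched bins per 1000 and 5.12 5mC-enriched bins per 1000. Plus strand positions gave a 5mC density of 0.898, an H2ABbd density of 0.556, 36.9% adjoining, 66.0% of pieces below 0.70, 2.74 H2ABbd-enriched bins per 1000, 3.93 5mC-enriched bins per 1000 and 15.2% repeated H2ABbd reads. Minus strand positions gave 573 members, a 5mC density of 0.778, an H2ABbd density of 0.479, 60.2% adjoining, 1.11 H2ABbd-enriched bins per 1000, 1.24 5mC-enriched bins per 1000 and 17.2% repeated H2ABbd reads. Leaving out the 0.1% most covered bins gave a 5mC density of 0.814, 66.4% of pieces below 0.70, 3.21 H2ABbd-enriched bins per 1000 and 3.44 5mC-enriched bins per 1000. Relative to the median window instead of the totals there were 94 members, a 5mC density of 0.877, an H2ABbd density of 0.490, 23.4% adjoining, 63.4% of pieces below 0.70, 9.19 5mC-enriched bins per 1000 and 15.9% repeated H2ABbd reads. With 5mC thinned to the number of H2ABbd positions there was a 5mC density of 0.834, an H2ABbd density of 0.525, 65.9% of pieces below 0.70, 4.57 H2ABbd-enriched bins per 1000 and 0.903 5mC-enriched bins per 1000. At a minimum of 2000 5mC positions there was a 5mC density of 0.808, an H2ABbd density of 0.501, 38.5% adjoining, 4.14 H2ABbd-enriched bins per 1000, 5.53 5mC-enriched bins per 1000 and 16.1% repeated H2ABbd reads. At a threshold of 0.60 there were 77 members, a 5mC density of 0.914, an H2ABbd density of 0.502, 20.8% adjoining, 78.7% of pieces below 0.70, 11.0 5mC-enriched bins per 1000 and 16.4% repeated H2ABbd reads. At 0.80 there were 790 members, a 5mC density of 0.845, an H2ABbd density of 0.597, 72.0% adjoining, 55.3% of pieces below 0.70, 4.58 H2ABbd-enriched bins per 1000, 3.44 5mC-enriched bins per 1000 and 16.8% repeated H2ABbd reads. Windows moved by 0.5 Mb gave a 5mC density of 0.840 and an H2ABbd density of 0.539. Windows of 0.5 Mb gave 912 members, a 5mC density of 0.825, an H2ABbd density of 0.509, 54.7% adjoining, 3.07 H2ABbd-enriched bins per 1000, 3.81 5mC-enriched bins per 1000 and 16.2% repeated H2ABbd reads. Windows of 2 Mb gave 95 members, a 5mC density of 0.871, an H2ABbd density of 0.562, 28.4% adjoining, 12.6% in the last 10 Mb, 63.9% of pieces below 0.70, 4.57 H2ABbd-enriched bins per 1000, 6.73 5mC-enriched bins per 1000 and 16.2% repeated H2ABbd reads. Enrichment at 8 times the mean gave 1.01 5mC-enriched bins per 1000. Enrichment at an adjusted 1e-05 gave 1.25 H2ABbd-enriched bins per 1000 and 2.20 5mC-enriched bins per 1000. Bins held against the mean of their own window, chosen after seeing the data, gave 5.505 H2ABbd-enriched bins per 1000 and 2.86 5mC-enriched bins per 1000. The 2166 members with all reads follow from the totals, which then hold every read of the deepest regions. Thresholds and window sizes set the count of members by construction, and for the other settings the cause was not tested. Of the 306 members, 225 were members without the most covered bins, 203 on positions with 1 read, 191 on the plus strand, 278 on the minus strand and 277 with 5mC thinned.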
